A study of Rattus norvegicus with 2 samples.

Results

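The miRNAs miR-22 and miR-378 were followed in exosomes that cardiomyocytes released into culture medium. Their rows were chosen from the count table by name alone, as mmu-miR-22 with an arm or mmu-miR-378 followed by a letter, and 7 of the 635 listed miRNAs met this rule. These were miR-22-3p (mmu-miR-22-3p in the table), miR-22-5p, miR-378a-3p (mmu-miR-378a-3p), miR-378a-5p, miR-378b, miR-378c and miR-378d. The primary cardiomyocytes came from hearts of 1- to 2-day-old Wistar rats and were enriched by differential adhesion and plated with 5′-bromo-2′-deoxyuridine, so other heart cells can remain in such a culture. After serum starvation, the cells were kept for 48 h without angiotensin II (Ang II) (the source of NC-Exo) or with Ang II at 1 μmol/L (the source of HC-Exo). Ang II is a hormone that enlarges cardiomyocytes, and the comparison asks how the miRNA content of exosomes differs between normal and hypertrophic cells. There was 1 small RNA library for each condition, so no difference below has a replicate check, and differences due to Ang II cannot be told apart from differences between single cultures.

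A miRNA is cut from a hairpin precursor, and either arm (5p or 3p) can be loaded into an Argonaute protein, where bases 2 to 8 of the miRNA, the seed, find the target mRNA. miR-22 is abundant in cardiac muscle and is known to promote cardiomyocyte growth, in part through the deacetylases Sirt1 and Hdac4. miR-378a is known to restrain this growth, in part by targeting components of growth factor and MAPK signaling such as Igf1r and Grb2, and it is expressed together with Ppargc1b, a regulator of mitochondrial metabolism. In mouse naming, miR-378b, miR-378c and miR-378d are close paralogs of the miR-378a 3p arm, so that reads may be assigned to several of these rows. The cells here were from rats, and whether these rows hold separate rat miRNAs was not tested.

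The rat sequences of 4 of the 7 miRNAs were found under the same name in RefSeq (build GRCr8), and they are shown because the seed separates the growth-promoting from the growth-restraining miRNA. The seed is in capitals.
miR-22-3p: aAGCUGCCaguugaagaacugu
miR-22-5p: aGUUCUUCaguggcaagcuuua
miR-378a-3p: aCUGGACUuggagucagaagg
miR-378a-5p: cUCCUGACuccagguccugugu
The 4 seeds differ from each other, and of the 312 rows of the table with a rat sequence of the same name, 0 other rows carried any of them. The rows miR-378b, miR-378c and miR-378d had no such sequence. Whether they stand for separate miRNAs in the rat, or carry the seed of miR-378a-3p, was therefore not examined. The seed of miR-22-3p pairs with the heptamer GGCAGCU in a target, and that of miR-378a-3p pairs with AGUCCAG. The miR-22 arms are 22 bases long each, with a GC content of 45.5% for miR-22-3p and 40.9% for miR-22-5p. For miR-378a the GC content was higher, 52.4% over 21 bases in the 3p arm and 59.1% over 22 bases in the 5p arm.
The miR-22 hairpin is shown to place both of its arms, which are in capitals.
Mir22: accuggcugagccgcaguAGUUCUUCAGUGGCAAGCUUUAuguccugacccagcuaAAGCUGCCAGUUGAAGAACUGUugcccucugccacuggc
The arms are separated by a loop of 16 bases in a hairpin of 95 bases. The seed of miR-22-5p is complementary to bases 13 to 19 of miR-22-3p, as the arms face each other in the stem. In the rat gene list the miR-378a gene lies within the bounds of Ppargc1b and overlaps Mir3557, whose 3p and 5p miRNAs hold the reverse complement of the miR-378a arms. The count table uses mouse names throughout, and it has 0 rows for miR-3557.

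The listed miRNA counts added up to 102608 reads in the NC-Exo library and 133155 in the HC-Exo library. Thus 1 read was 9.75 and 7.51 reads per 1000000 miRNA reads (RPM), respectively. Any read listed under several names would be counted repeatedly in these totals, on which the RPM, percentages and binomial tests below rest. The 6 cardiomyocyte marker miRNAs examined were miR-1a-3p, miR-133a-3p, miR-133b-3p, miR-208a-3p, miR-208b-3p and miR-499-5p. All were present, and their summed level was 16.9% of the NC-Exo reads and 18.4% of the HC-Exo reads, most of it miR-1a-3p. Both endothelial markers were also present, with 9.11% and 6.68%, as were all 4 fibroblast and smooth muscle markers with 3.81% and 3.86%, and 4 of 5 blood markers with 0.698% and 0.756%, miR-144-3p being the one without a row. These sums depend on their most abundant miRNA. Most of the blood sum was miR-486a-5p, without which it was 604 RPM in NC-Exo and 984 RPM in HC-Exo. Whether each marker came from the cell type it is listed for was not tested. The log2 ratio of the endothelial sum was -0.45, or 0.21 without miR-126a-5p, and that of the fibroblast and smooth muscle sum was 0.021, or -0.22 without miR-143-3p. For the cardiomyocyte sum it was 0.12, or 0.40 without miR-1a-3p, and for the blood sum 0.11, or 0.70 without miR-486a-5p. The part of these other cell types in the miR-22 and miR-378 levels was not tested. No other tissue was sequenced, so whether both miRNAs are enriched in cardiomyocytes could not be examined. A two-sided exact binomial test, with Benjamini-Hochberg adjustment, set HC-Exo against NC-Exo for all 340 miRNAs whose reads in the 2 libraries added up to at least 10. This test compares the 2 libraries, not the conditions. All intervals are 95% intervals that cover counting error only and treat each read as an independent draw. PCR copies a molecule into several reads, so the intervals can be too narrow.

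Together the 5 miR-378 rows held 5.51% of the NC-Exo reads and 5.10% of the HC-Exo reads, if no read was counted more than once. The 2 miR-22 rows held 0.419% and 0.476%. However, miR-378a-5p was below miR-22-3p in both libraries and miR-378b was close to it. The NC-Exo library held 2138 reads of miR-378a-3p and the HC-Exo library 2568, which are 20837 RPM (95% Clopper-Pearson interval 19971 to 21729) and 19286 RPM (18554 to 20039). By reads it ranked 11 without and 13 with Ang II. miR-22-3p had 414 and 604 reads, which are 4035 RPM (3656 to 4442) and 4536 RPM (4182 to 4912), and it had rank 40 in both libraries. For each read of miR-22-3p there were thus 5.16 reads of miR-378a-3p in NC-Exo, against 4.25 in HC-Exo. These are ratios of reads, and adapters are not ligated equally well to every miRNA, so they are not ratios of molecules.

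**Figure D1:**
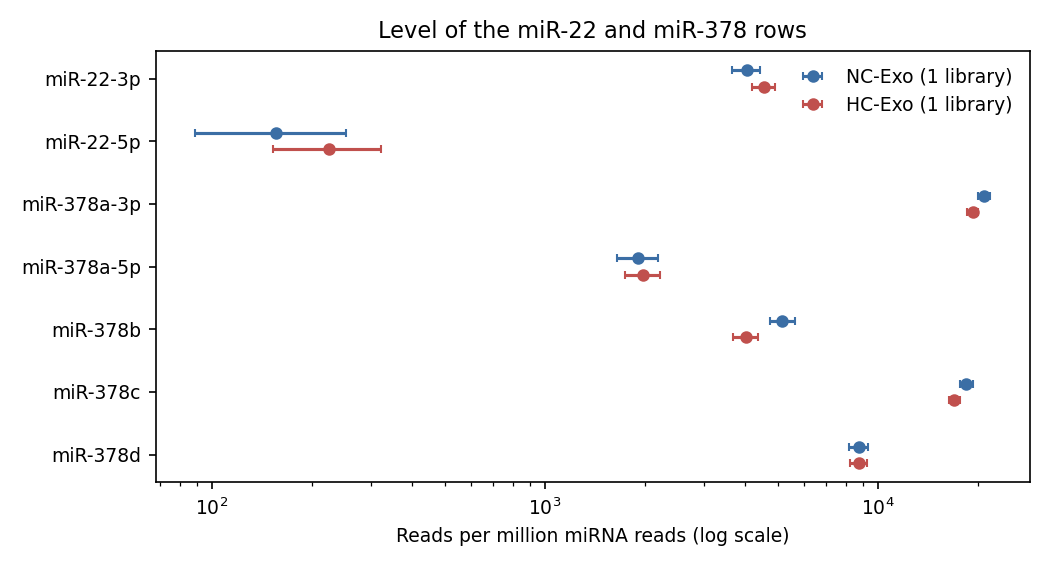
Level of each miR-22 and miR-378 row in RPM, on a log axis, with 1 library for NC-Exo (blue) and 1 for HC-Exo (red). Bars are 95% Clopper-Pearson intervals of the count, and the points range from 156 RPM for miR-22-5p to 20837 RPM for miR-378a-3p.

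Of the rows named as paralogs, miR-378c was next to miR-378a-3p in level, with 1890 and 2263 reads (18420 and 16995 RPM). miR-378d followed with 899 and 1167 reads (8762 and 8764 RPM). miR-378b had 530 and 535 reads (5165 and 4018 RPM). The order miR-378a-3p, miR-378c, miR-378d, miR-378b, miR-22-3p, miR-378a-5p and miR-22-5p held in NC-Exo, with no overlap between the intervals of neighbours. In HC-Exo, miR-22-3p stood above miR-378b, but there their intervals overlapped (4182 to 4912 RPM against 3685 to 4372 RPM). Among the other miRNAs, the levels closest to those of miR-22-3p over both libraries were those of the muscle miRNA miR-133a-3p and of miR-146a-5p, at distances of 0.20 and 0.21 in log2 RPM. Closest to miR-378a-3p were let-7d-3p (0.15) and miR-378c (0.25). A likeness over 2 libraries is hardly more than a similar abundance.

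The less abundant arms were the 5p arms. Only 16 reads of miR-22-5p were counted in NC-Exo, and 30 were counted with Ang II, so the 3p arm held 96.3% (94.0 to 97.9%) and 95.3% (93.3 to 96.8%) of the miR-22 reads, respectively. miR-378a-5p had 195 and 262 reads, leaving the 3p arm with 91.6% (90.4 to 92.7%) and 90.7% (89.6 to 91.8%) of the miR-378a reads. The use of the arms was thus close between the libraries, with differences of -1.01 percentage points for miR-22 and -0.90 for miR-378a. Neither difference passed, with adjusted p = 0.840 and 0.701 in Fisher's exact test among 143 hairpins, where 2.80% of the hairpins did so.

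None of the 7 rows reached a log2 ratio of 1 in size. With an adjusted p-value under 0.05 and that limit, 0 of the 7 were called, against 4.71% of all miRNAs tested. Without the limit 3 of the 7 passed, all lower in HC-Exo, where 22.4% of all miRNAs passed and 8.53% passed as lower. Well-counted miRNAs pass more often, and of those with at least 100 reads over both libraries 43.0% passed in either direction and 14.8% passed as lower, beside 3 of the 6 rows here that have as many reads, all 3 of them lower. These 3 rows bear the names of paralogs, may share reads and are not independent of each other.

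The growth-promoting miR-22-3p was not distinguishable between the libraries. Its level was 1.12 times as high in HC-Exo as in NC-Exo, with an interval of 0.990 to 1.28. On the log2 scale this is 0.17 (-0.014 to 0.35), and the adjusted p of the exact binomial test was 0.196. An increase above 1.28-fold was therefore outside this counting interval. With its 16 and 30 reads, miR-22-5p had a log2 ratio of 0.53 with a wide interval (-0.39 to 1.5), and its adjusted p was 0.511 in the exact binomial test. The 2 arms lay in the same direction, but at this depth a difference was not detectable for either alone. Their sum had a log2 ratio of 0.18 (0.0052 to 0.36), an interval just above 0 that is not adjusted for the number of miRNAs tested.

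The growth-restraining miR-378a-3p was slightly lower in the HC-Exo library, at 0.926 times its level in NC-Exo (0.874 to 0.981). Its log2 ratio was -0.11 (-0.19 to -0.028), with an adjusted p of 0.0401 in the exact binomial test, and the difference did not pass when miRNAs with few reads were also tested (adjusted p = 0.0739). miR-378c had nearly the same log2 ratio, -0.12 (-0.20 to -0.027), with an adjusted p of 0.0465 in the exact binomial test, and it too did not pass without the filter on reads (adjusted p = 0.0858). The lowest ratio was that of miR-378b, with 0.778 times its level in NC-Exo (0.689 to 0.879), or -0.36 on the log2 scale (-0.54 to -0.19), with an adjusted p of 0.00052 in the exact binomial test. By contrast, miR-378d had a log2 ratio of 0.00045 (-0.13 to 0.13), and miR-378a-5p one of 0.050 (-0.22 to 0.33), with adjusted p-values of 1 and 0.869 in the exact binomial test. If cultures are assumed to vary with a coefficient of 0.1, the exact test of edgeR did not call any of the 3 lower rows, with adjusted p = 0.426 for miR-378b and 0.855 for miR-378a-3p and miR-378c.

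**Figure D2:**
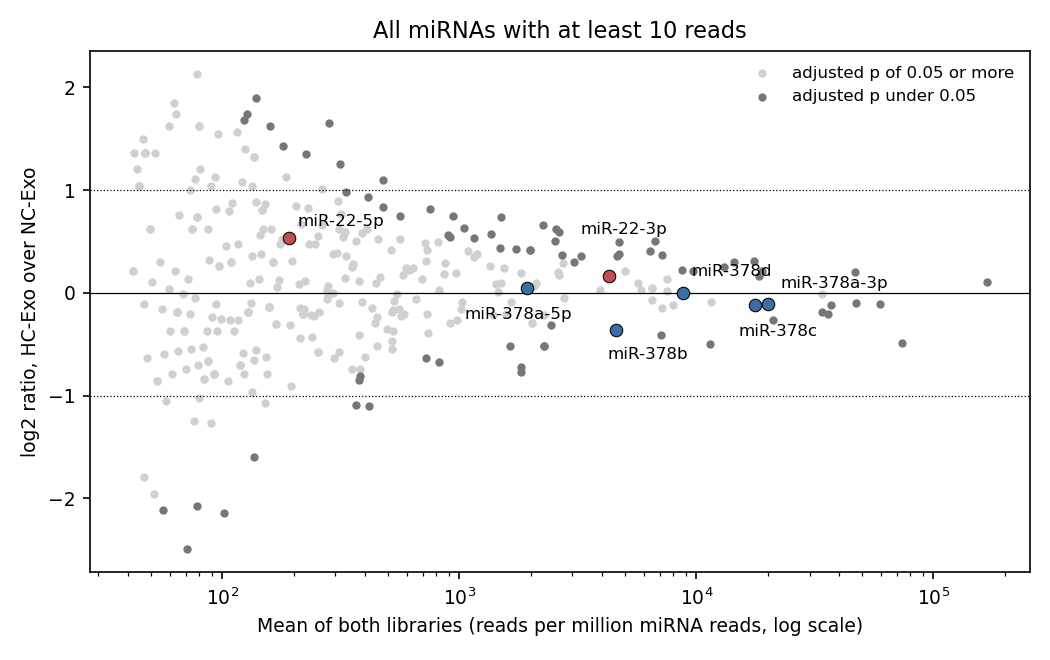
The log2 ratio (HC-Exo to NC-Exo) against the mean level of both libraries (RPM, log axis) for the 340 miRNAs tested, with the miR-22 rows in red, the miR-378 rows in blue and libraries at or under 3 reads set at 3 reads. Dotted lines mark a log2 ratio of 1 in size, and all 7 labelled rows lie between them, from -0.36 for miR-378b to 0.53 for miR-22-5p.

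Directions this small depend on how the libraries are scaled. The median log2 ratio of the 340 miRNAs was 0.098, and relative to this median miR-22-3p stood at 0.071, miR-378a-3p at -0.21, miR-378c at -0.21 and miR-378b at -0.46. Upper-quartile scaling shifted every log2 ratio by -0.12, so that miR-22-3p came to 0.045 and miR-378a-3p to -0.24. Among the 4 other scalings, miR-378d turned negative under all 4, and miR-378a-5p turned negative under 3. miR-22-3p and miR-22-5p stayed above 0 and miR-378a-3p, miR-378b and miR-378c below 0 under each of the 4. Over all miRNAs with an adjusted p-value under 0.05, those higher in HC-Exo were 47 of 76 (61.8%) with the library totals, 45 of 74 (60.8%) with DESeq2's size factors, 35 of 70 with TMM scaling, 29 of 65 (44.6%) with totals without the 10 most abundant miRNAs and 24 of 62 (38.7%) with upper-quartile scaling.

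**Figure D3:**
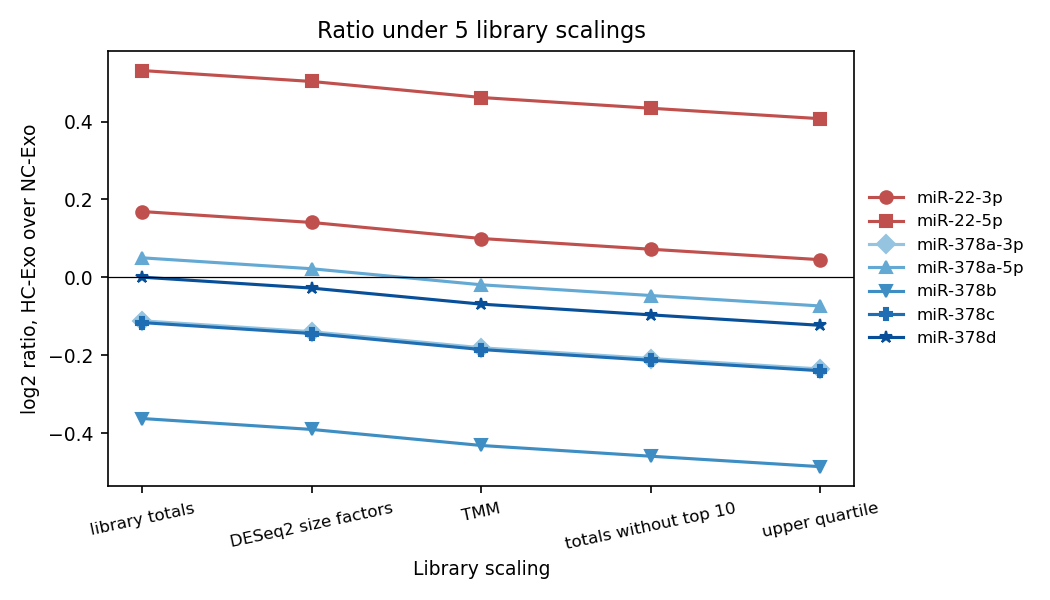
The log2 ratio (HC-Exo to NC-Exo) of each row under 5 ways of scaling the libraries, with miR-22 rows in red and miR-378 rows in blue; lines join the values of 1 miRNA and carry no order. All rows move together, by at most -0.12, and miR-378d and miR-378a-5p cross 0.

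A direct comparison of the promoting with the restraining miRNA needs no scaling, because both are counted in the same libraries. The log2 ratio of miR-22-3p exceeded that of miR-378a-3p by 0.28 (0.079 to 0.48), which narrowly missed the threshold (adjusted p = 0.0521 in Fisher's exact test, among 339 tests of miR-22-3p against every other miRNA). Against miR-378c the difference was 0.29 (0.081 to 0.49), also just short of passing (adjusted p = 0.0506, Fisher's exact test). Of the 5 miR-378 rows, miR-378b was the one that passed, with a difference of 0.53 (0.28 to 0.79, Fisher's exact test, adjusted p = 0.0013), while 9.73% of all miRNAs passed against miR-22-3p. The reads of miR-378b for each read of miR-22-3p were 1.28 without and 0.886 with Ang II. The differences from miR-378d and miR-378a-5p were 0.17 (-0.055 to 0.39) and 0.12 (-0.21 to 0.45), with adjusted p-values of 0.374 and 0.699 in Fisher's exact test. Taken as a sum, the rows miR-378a-3p, miR-378b, miR-378c and miR-378d differed from miR-22-3p by 0.29 and passed (Fisher's exact test, adjusted p = 0.0371), but any read listed under several names would be counted repeatedly in this sum, which would make the p-value too small.

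Within the miR-378 family, miR-378a-3p and miR-378c kept nearly the same proportions, while the share of miR-378b was smaller in HC-Exo. miR-378a-3p held 39.2% of the NC-Exo reads of these 4 rows and 39.3% of the HC-Exo reads, and miR-378c held 34.6% of each. Each read of miR-378a-3p was matched by 0.884 reads of miR-378c in NC-Exo and by 0.881 in HC-Exo, a log2 difference of 0.0045 (-0.12 to 0.13). The share of miR-378b was 9.71% (8.94 to 10.5%) without and 8.19% (7.54 to 8.88%) with Ang II, and that of miR-378d was 16.5% (15.5 to 17.5%) and 17.9% (16.9 to 18.8%). In a comparison chosen after these values were seen, the log2 ratio of miR-378a-3p exceeded that of miR-378b by 0.25 (0.055 to 0.45), with an adjusted p of 0.0469 in Fisher's exact test among 339 such tests. It did not pass without the filter on reads (adjusted p = 0.0856), and 23.3% of all miRNAs passed against miR-378a-3p. Elsewhere in the count table, rows under different names held identical counts, as would follow if reads were listed under each name they match. miR-199a-3p and miR-199b-3p each had 174 and 301 reads, and miR-486a-5p and miR-486b-5p each had 654 and 875. The 4 miR-378 rows differ in their counts. Whether they share reads or hold separate rat miRNAs was not tested, since the counts do not show which reads were assigned to each name. The 4 rows together held 5.32% of all NC-Exo reads and 4.91% of all HC-Exo reads, if no read was counted more than once.

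Other miRNAs known to act on cardiomyocyte growth were set beside these rows, from 2 lists of miRNAs that promote or restrain hypertrophy. Of 11 other promoting miRNAs, 10 were tested, and 4 were higher and 2 lower in HC-Exo at an adjusted p-value under 0.05 in the exact binomial test, against 13.8% and 8.53% of all miRNAs. The higher ones were miR-199a-5p, with 19 and 59 reads and a log2 ratio of 1.26, miR-27b-3p (0.59), and miR-19a-3p (0.49) and miR-19b-3p (0.41) of the miR-17-92 cluster. The lower ones were miR-23a-3p, a miRNA at 38330 RPM in NC-Exo with a log2 ratio of -0.21, and miR-212-3p with -1.09. Most tested miRNAs of this list have at least 100 reads over both libraries. Of all miRNAs with as many reads, 43.0% passed in either direction and 14.8% passed as lower. With the limit on the log2 ratio, only miR-199a-5p and miR-212-3p of this list were called, against 4.71% of all miRNAs tested. The list holds the row miR-155-5p, counted 11 and 8 times with a log2 ratio of -0.84 that did not pass, and the table has a further row, named miR-155, whose 6 and 29 reads gave 1.90 and were called (adjusted p = 0.0121 in the exact binomial test). Among the miRNAs tested, which are otherwise in order of name, the row miR-155 stands between miR-434-5p and miR-450b-3p. Whether it stands for the same miRNA as miR-155-5p was not examined. Taking that row in place of miR-155-5p would add 1 miRNA to those higher in HC-Exo and to those called. miR-208a-3p, encoded in a cardiac myosin gene, was counted 9 and 24 times, with a log2 ratio of 1.04 (-0.12 to 2.33) and an adjusted p of 0.211 in the exact binomial test.
Of 10 other restraining miRNAs, 9 were tested. Of these, 4 were higher and 0 lower in HC-Exo at an adjusted p-value under 0.05, against 13.8% and 8.53% of all miRNAs. The 4 higher ones were the muscle miRNAs miR-133a-3p (log2 ratio 0.36), miR-133b-3p (0.51) and miR-1a-3p (0.11), and the let-7 relative miR-98-5p (0.56). With upper-quartile scaling 2 of the 4 passed, since miR-1a-3p turned to -0.013 and miR-98-5p had an adjusted p of 0.124 in the exact binomial test. miR-1a-3p, miR-133a-3p and miR-133b-3p are also among the cardiomyocyte markers summed above, so this result and that sum are not separate. The part of cardiomyocytes in their ratios was not tested, nor was whether miR-133a-3p and miR-133b-3p share reads. Most tested miRNAs of this list have at least 100 reads, and of all such miRNAs 43.0% passed in either direction. None of this list was called with the limit on the log2 ratio, against 4.71% of all miRNAs tested. The median log2 ratio was 0.41 for the promoting list and 0.36 for the restraining list, beside 0.098 for all miRNAs tested. miR-22-3p at 0.17 and the miR-378 rows at -0.36 to 0.050 were below both list medians, whereas miR-22-5p at 0.53 was above both.

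**Figure D4:**
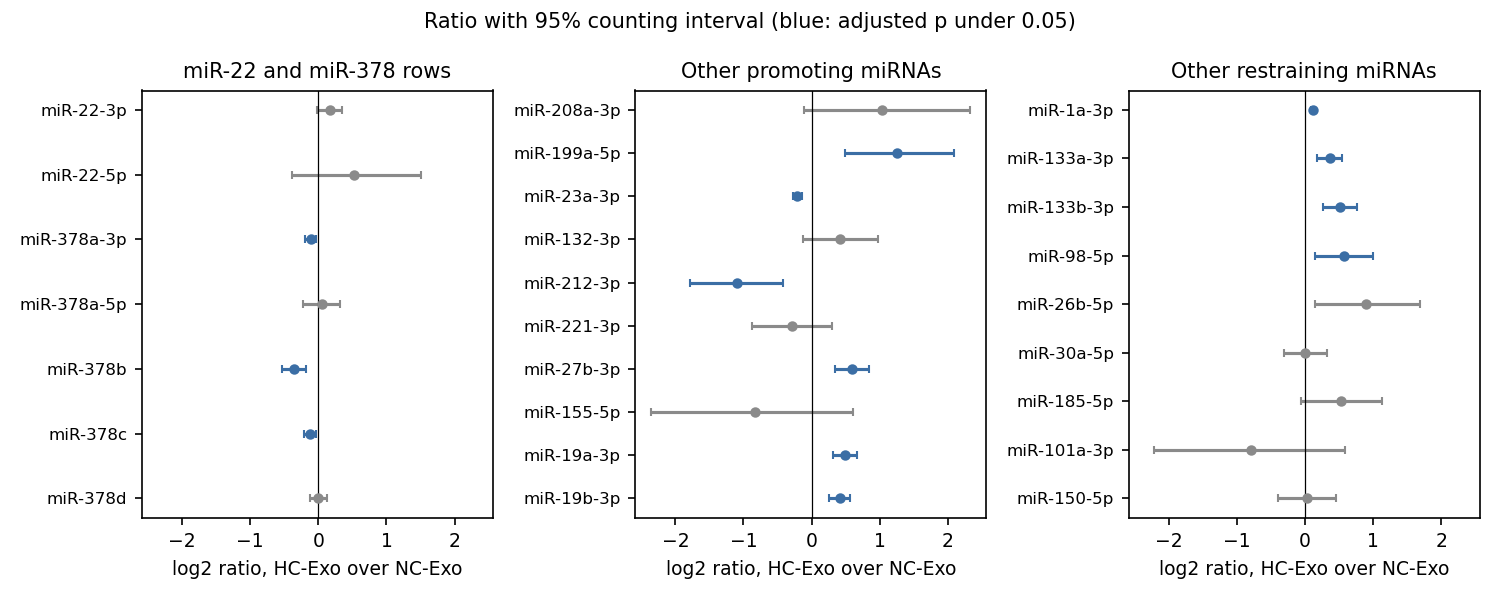
The log2 ratio (HC-Exo to NC-Exo) with 95% intervals from the exact binomial share, for the 7 miR-22 and miR-378 rows (left), 10 other promoting miRNAs (middle) and 9 other restraining miRNAs (right). Blue marks an adjusted p-value under 0.05, which 3 of the 7 rows on the left reached, all below 0.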

How the data were processed

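Small RNA of exosomes was sequenced by the authors on an Illumina sequencer, with 1 library each for NC-Exo and HC-Exo. The submitters' processing notes name Bowtie2 and the mouse builds mm9 and GRCm38, without a role; the use of strand and the handling of reads that match several miRNAs are not given in the sources used here. Raw counts for mature miRNAs, as deposited, were the input of every test. The deposited normalized signal equals the count times 12.1 for NC-Exo or 9.23 for HC-Exo, and served as an alternative level. The authors' own comparison, with scaled counts, log2 fold changes, p-values and q-values, was not used.
The miRNAs named are all rows selected by name, those of the 2 lists that passed, rows with a shared seed and the 2 miRNAs nearest in level. Lists of cell type markers were summed, and once more without their most abundant miRNA, a setting chosen after the data were seen. Members and lists were chosen with earlier results of these data known. Ratios used library totals and the exact binomial test. Pairs and arms used Fisher's exact test. Pairs were adjusted over the 339 other miRNAs with at least 10 reads, and arms over 143 hairpins with at least 10 reads. Counts of 3 or fewer were raised to 3 for ratios. Student's t-test, named in the study's methods, needs replicates. Scripts used Python 3.11.15, scipy 1.17.1 and, for alternative scalings and assumed spreads, edgeR 4.0.16 and DESeq2 1.42.0 in R 4.3.3. The binomial test was checked on simulated data with large changes and counting error only. That check does not cover differences as small as those here, or variation between cultures.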

Additional observations from a re-analysis of the deposited data

How the results depend on the processing

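No paired analysis was possible because there was 1 library for each condition, which also left no replicate to omit. The log2 ratio of miR-378a-3p lost its significance, with -0.11 each time, without a filter on reads, where more miRNAs are tested, and in edgeR's exact test when cultures were assumed to vary with a coefficient of 0.1, 0.2 or 0.4, a variation left out of the binomial test. The log2 ratio of miR-378a-5p reversed to -0.019 with TMM, -0.073 with upper-quartile and -0.047 with totals without the 10 most abundant miRNAs. That of miR-378d reversed to -0.069, -0.12 and -0.096 under these scalings, to -0.028 with DESeq2's size factors and to -0.0014 with a pseudocount of 5 reads. Without the limit on the log2 ratio, 3 of the 7 rows were called in place of 0, and 6 promoting and 4 restraining miRNAs in place of 2 and 0. Over all miRNAs tested it was 22.4% in place of 4.71%. Among those with at least 100 reads over both libraries, 43.0% passed without the limit. Summing the miR-378 rows brought the difference between miR-22-3p and miR-378a-3p, 0.29 instead of 0.28, past the threshold. Of 78 alternative log2 ratios of the 7 rows, 59 kept their direction and, where an adjusted p-value was computed, their side of the threshold. The pseudocount settings gave a value only. A changed filter or assumed variation leaves the log2 ratio nearly the same, so those settings do not check the direction. The deposited normalized values are 1.24 times the RPM in NC-Exo and 1.23 times in HC-Exo. A total of 102608 listed reads leaves miR-22-5p, with 16 reads, open to ratios from 0.763 to 2.84.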
